A study of Mus musculus with 6 samples.

Results

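The genes described here carry out the breakdown of fatty acids in mitochondria and peroxisomes, maintain the peroxisome, or make and cleave ether lipids. They were compared between NME cells and AGR cells by hybridization of total RNA to Affymetrix Mouse Gene 1.0 ST arrays, 3 with RNA of each line. The list names 39 genes, and a gene was represented by its brightest probe set that carries no other symbol. This gave 37 members of 19938 genes in all. No named probe set was found for Acsl1, and the probe set of Acsl3 is shared with Utp14b, so these long-chain acyl-CoA synthetases were not analysed here. NME cells are normal murine mammary gland (NMuMG) epithelial cells transformed by stable overexpression of EGFR. AGR cells descend from 1 colony of NME cells that grew large in 3D culture under 1 µM AG1478, an inhibitor of the EGFR kinase, and that was picked by hand, expanded in 2D culture and found resistant before its RNA was taken. Both lines therefore overexpress EGFR, and AGR cells represent 1 selected colony rather than several independent ones. Both were grown in DMEM with serum and insulin. Per the paper's methods, resistant lines were kept without drug once they had been established. The sources used here do not say whether the 3 arrays of a line came from separate cultures, so the p-values measure the spread between arrays, which may be technical.

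Fatty acids are first joined to coenzyme A. Long chains enter mitochondria as carnitine esters and are shortened there by repeated rounds of β-oxidation, each made up of a dehydrogenation, a hydration, a further dehydrogenation and a thiolytic cleavage. Peroxisomes use their own set of enzymes for very long chains, branched chains and bile acid precursors, and α-oxidation prepares phytanic acid for this route. The early steps of ether lipid synthesis also take place in the peroxisome. Many of these genes are known targets of PPARα, and liver, heart and brown fat are tissues known for high rates of fatty acid oxidation.

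The deposited intensities had medians between 190.4 and 200.8 on the 6 arrays. Correlations over all probe sets were 0.995 to 0.997 between arrays of the same line and 0.986 to 0.988 between arrays of different lines. Levels below are log2 of the intensity, apart from the summed intensities of the marker lists. The level of 1 gene was not set against that of another gene, only against the median and 25th percentile of all probe sets. The median of all probe sets was 7.61 and the 25th percentile was 6.12, and since no detection calls were at hand, levels under 7.61 could not be separated from background. The epithelial markers Krt8 and Krt18 were bright in both lines, and Epcam, Krt5, Krt14 and Elf5 lay under 7.61 in both. The arrays numbered 2 were often the lowest of their line for the members. NME replicate 2 was the lowest array of its line for 28 of 37 members (75.7%, against 36.7% of all genes), and AGR replicate 2 was the lowest for 25 of 37 (67.6%, against 36.9% of all genes). These shares of all genes include many dim genes, while 34 of 37 members had a mean above the median of all probe sets. Shares among bright genes alone were not taken, and the part of brightness in this pattern was not tested. With both arrays numbered 2 left out, 19 members were lower and 2 were higher, as with all arrays.

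Most of the genes in this set that changed had less RNA in AGR cells. With limma and a threshold of 0.05 on the adjusted p, 19 of 37 members (51.4%) were lower, 2 were higher and 16 were not called. Over all genes tested, 11.6% were lower and 12.6% were higher by the same rule. The members were chosen with earlier results of these data known, so these shares describe them and test nothing. The median log2 FC (AGR minus NME) was -0.22 for the members and -0.02 for all genes. The change was above 2-fold for 3 members, Agmo, Acox2 and Crot, and for 1.5% of all genes in the lower direction. All AGR arrays lay below all NME arrays for 21 of 37 members (56.8%), against 18.5% of all genes, and above them for 4, against 17.9% of all genes. The mean level lay above the median of all probe sets for 34 of 37 members and for 11678 of 19938 genes. In a fit of these genes alone, 18 of 34 members were lower (52.9%) and 2 were higher, against 19.1% lower and 21.8% higher over all genes of that fit. The number of lower members was 12 without NME replicate 1 and 12 without NME replicate 3. In RNA of whole cultures, fewer cells with a transcript and less of it per cell cannot be told apart.

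**Figure D1:**
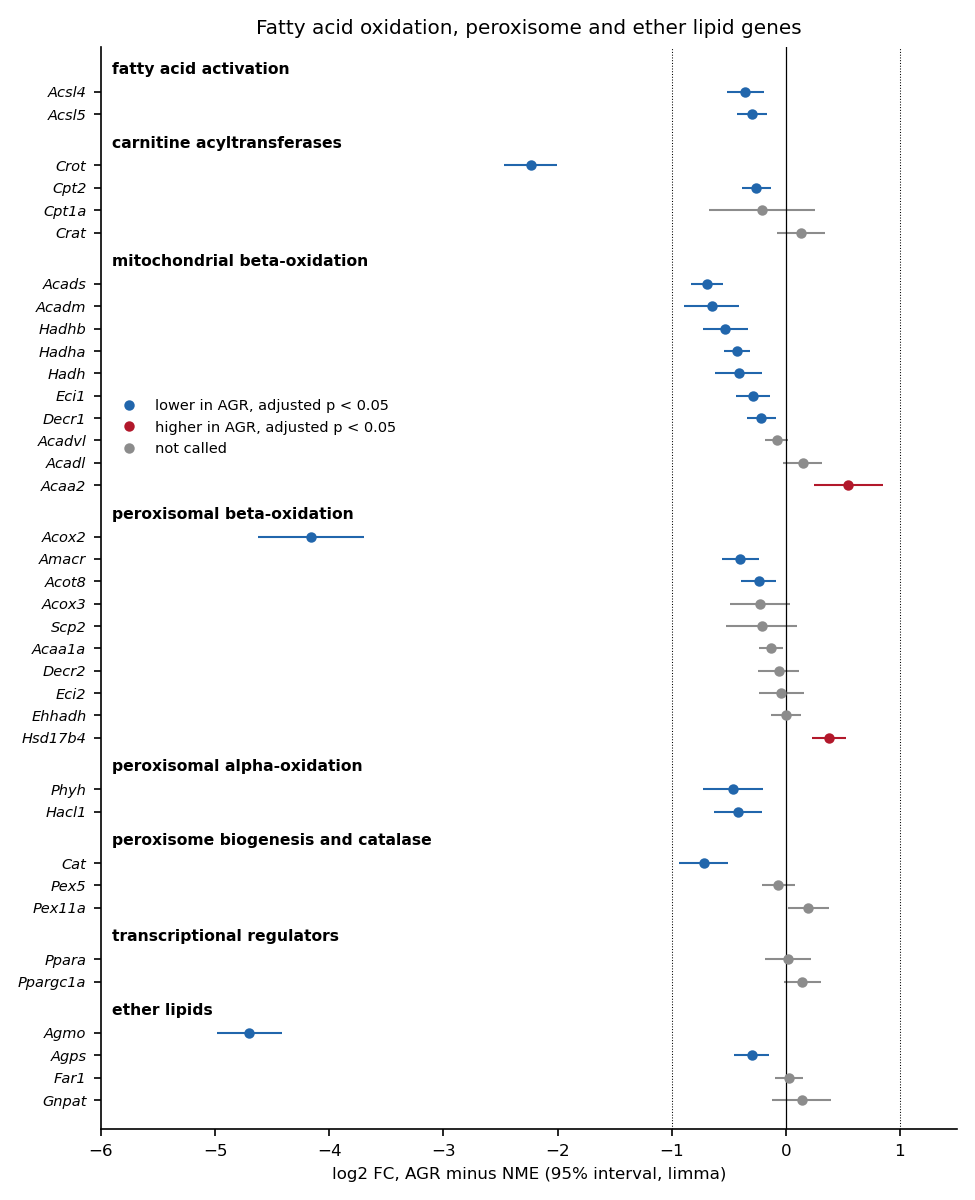
Log2 FC (AGR minus NME) of the 37 members, grouped by role, with the 95% interval from limma (3 arrays for each line, dotted lines at a 2-fold change). Blue points are the 19 members lower in AGR cells, red points the 2 higher ones and grey points the 16 not called. Agmo, Acox2 and Crot lie beyond the 2-fold line and all other members lie within it.

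The largest changes fell on 1 gene of ether lipid cleavage and on 2 genes of the peroxisome. The bases before the starts of these 3 genes are shown because they differ in CpG content, CpG being the site of DNA methylation in mammals, which was not measured here. Each sequence runs 5′ to 3′ on the strand of the gene, covers the 250 bases before a start in the RefSeq table of GRCm38.p6, and has its CpG in capitals.
Agmo, chr12:37241389-37241638, plus strand: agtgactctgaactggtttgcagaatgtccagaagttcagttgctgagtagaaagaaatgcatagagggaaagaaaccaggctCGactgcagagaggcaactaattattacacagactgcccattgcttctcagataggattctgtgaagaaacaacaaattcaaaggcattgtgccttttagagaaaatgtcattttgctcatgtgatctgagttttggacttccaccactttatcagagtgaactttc
Acox2, chr14:8259020-8259269, minus strand: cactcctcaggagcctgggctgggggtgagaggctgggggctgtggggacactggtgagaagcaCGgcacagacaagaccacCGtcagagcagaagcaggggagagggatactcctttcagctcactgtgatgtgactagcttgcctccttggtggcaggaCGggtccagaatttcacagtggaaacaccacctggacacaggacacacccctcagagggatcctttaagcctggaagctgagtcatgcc
Crot, chr5:8997147-8997396, minus strand: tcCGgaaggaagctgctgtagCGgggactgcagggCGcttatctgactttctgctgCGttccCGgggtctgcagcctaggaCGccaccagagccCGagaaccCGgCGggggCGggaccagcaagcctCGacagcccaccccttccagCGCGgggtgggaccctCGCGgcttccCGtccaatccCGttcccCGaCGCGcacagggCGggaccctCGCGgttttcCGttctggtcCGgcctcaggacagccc
The Agmo sequence holds 1 CpG and has a GC content of 40.8%, and 12.4% of the promoters of tested genes hold as few CpG or fewer. The Acox2 sequence holds 3 CpG with a GC content of 58.8%, and the window before another Acox2 start, which overlaps it, holds 1 with 52.8%. The Crot sequence holds 25 CpG with a GC content of 69.6%, a number that 86.6% of the promoters of tested genes do not exceed. The 3 genes with the largest decreases thus had both CpG-poor and CpG-rich starts. The median over the 35 promoters in the table of 32 members was 12 CpG, against 11 over the 19177 promoters of 15614 tested genes.

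Agmo encodes alkylglycerol monooxygenase, the tetrahydrobiopterin-dependent enzyme that cleaves the ether bond of alkylglycerols. Its levels were 10.25, 9.88 and 10.13 on the NME arrays and 5.25, 5.34 and 5.57 on the AGR arrays. The lines were far apart, and all 3 AGR values lay under the 25th percentile of all probe sets. The means were 10.09 ± 0.19 in NME and 5.39 ± 0.17 in AGR cells (SD, n = 3), and the log2 FC was -4.70 (SE 0.12, adjusted p = 1.8e-06), 26.0-fold lower in AGR. Since the AGR level is within background, the size of this fold rests on the background of the probe set.

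The other 3 measured genes of ether lipids make them. Agps, the peroxisomal alkylglycerone phosphate synthase that forms the ether bond, was lower by a log2 FC of -0.30 (adjusted p = 0.0149), a call lost without NME replicate 1 and without AGR replicate 3. Gnpat, which acylates dihydroxyacetone phosphate in the step before, had a log2 FC of 0.14 (95% interval -0.12 to 0.40), and Far1, which supplies the fatty alcohol, one of 0.03 (95% interval -0.10 to 0.15). Neither was called. The gene of ether lipid cleavage and that of ether bond formation were thus both lower, by very different amounts.

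Acox2 encodes a peroxisomal oxidase that acts on bile acid intermediates. Its levels were 11.93, 12.11 and 11.83 on the NME arrays and 7.43, 8.22 and 7.73 on the AGR arrays. AGR cells were lower on every array, and their values spread around the median of all probe sets. The means were 11.96 ± 0.14 in NME and 7.79 ± 0.40 in AGR cells (SD, n = 3), and the log2 FC was -4.16 (SE 0.19, adjusted p = 2.2e-05), 17.9-fold lower in AGR. Since the AGR level is close to background, the size of this fold may rest in part on the background of the probe set.

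The other 9 members of peroxisomal β-oxidation changed little. Amacr, the racemase that turns branched acyl-CoA into the form the oxidases accept, had a log2 FC of -0.40 (adjusted p = 0.0060). Acot8, a peroxisomal thioesterase, had one of -0.24 (adjusted p = 0.0356), and its call was lost when any array but AGR replicate 2 was left out or when each array was centred on its median. Hsd17b4, the D-bifunctional enzyme that takes over the products of the oxidases, went the other way. It rose from 10.45, 10.30 and 10.43 on the NME arrays to 10.79, 10.68 and 10.84 on the AGR arrays, with no overlap, a log2 FC of 0.38 (SE 0.06, adjusted p = 0.0049). Within 1 pathway the oxidase gene Acox2 was therefore lower and Hsd17b4, which acts after the oxidases, higher.

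The remaining 6 genes of this role were not called. The log2 FC was -0.22 for Acox3, a branched-chain oxidase, -0.21 for the thiolase Scp2 and -0.13 for the thiolase Acaa1a. It was -0.06 for Decr2, -0.04 for Eci2 and -0.00 for Ehhadh, the L-bifunctional enzyme. The interval for Acox3 reached from -0.49 to 0.04 and that for Scp2 from -0.53 to 0.10, so decreases of the size of that of Amacr lay within both. Acaa1a lay below NME on all 3 AGR arrays with an adjusted p of 0.087, but it has a near-identical paralog, Acaa1b, whose transcripts its probes may share. The probe set named for Acaa1b was lower in limma, with a log2 FC of -0.22 (adjusted p = 0.0309). Its level was under the median of all probe sets in both lines. Ehhadh lay under the median of all probe sets on every array, with means of 6.97 in both lines. Beside 12.6% of all genes, 5 of its 10 nearest measured neighbours on chromosome 16 were higher in AGR cells. These include Vps8 with a log2 FC of 1.00 and Senp2 with 0.88, both named after their values were seen.

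Crot encodes carnitine octanoyltransferase, which prepares the shortened chains of the peroxisome for export to mitochondria. Its levels were 12.30, 12.18 and 12.18 on the NME arrays and 10.05, 9.77 and 10.14 on the AGR arrays. Both lines were well above the median of all probe sets and did not overlap. The means were 12.22 ± 0.07 in NME and 9.98 ± 0.19 in AGR cells (SD, n = 3), and the log2 FC was -2.23 (SE 0.10, adjusted p = 1.7e-05), 4.70-fold lower in AGR.

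The carnitine acyltransferases of mitochondria did not share a change of this size. Cpt2, which returns the acyl group to coenzyme A inside the mitochondrion, was lower with a log2 FC of -0.26 (adjusted p = 0.0125), a call lost without NME replicate 1 and without NME replicate 3. Cpt1a, the regulated entry step at the outer membrane, had levels of 11.91, 11.64 and 11.94 on the NME arrays and 11.83, 11.17 and 11.88 on the AGR arrays. The lines overlapped, AGR replicate 2 lay apart from the others, and the log2 FC of -0.21 was not called (95% interval -0.67 to 0.26, adjusted p = 0.543). Crat, the carnitine acetyltransferase, had a log2 FC of 0.13 and was not called.

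**Figure D2:**
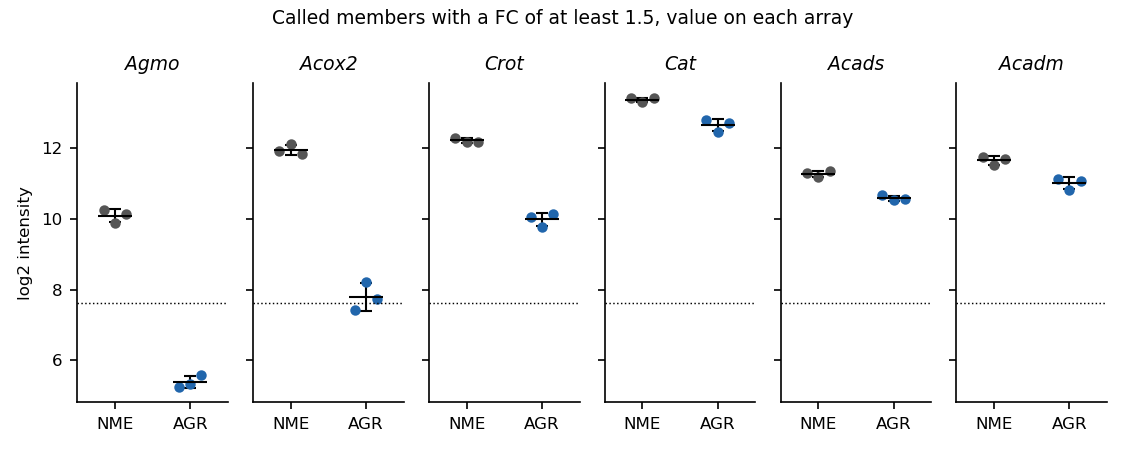
Log2 intensity of the 6 called members with a change of at least 1.5-fold, on each of the 3 NME and 3 AGR arrays, with the mean and SD of each line. The dotted line is the median of all probe sets, 7.61, and the AGR values of Agmo lie below it, those of Acox2 lie on both sides of it, and the lines do not overlap for any of the 6 genes.

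Of the enzymes that join long-chain fatty acids to coenzyme A, both measured members were lower in AGR cells. Acsl4, which prefers arachidonic acid, had a log2 FC of -0.35 (adjusted p = 0.0091) and Acsl5 one of -0.30 (adjusted p = 0.0076). For each of them all AGR arrays lay below all NME arrays.

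Of 10 members of mitochondrial β-oxidation 7 were lower in AGR cells, each by less than 2-fold, 1 was higher and 2 were not called, beside 11.6% lower and 12.6% higher over all genes. The median log2 FC was -0.35. The number of lower members was 4 without NME replicate 1 and 4 without NME replicate 3, settings in which fewer of all genes were called lower too. Among the acyl-CoA dehydrogenases of the first step, the short-chain and medium-chain enzymes were lower and those for longer chains were not called. Acads, for short chains, had levels of 11.29, 11.19 and 11.34 on the NME arrays and 10.66, 10.52 and 10.57 on the AGR arrays. Acadm, for medium chains, had levels of 11.75, 11.52 and 11.70 on the NME arrays and 11.12, 10.81 and 11.08 on the AGR arrays. Neither overlapped between the lines. The log2 FC were -0.69 for Acads (SE 0.06, adjusted p = 3.3e-04, 1.61-fold lower) and -0.65 for Acadm (SE 0.10, adjusted p = 0.0038, 1.57-fold lower). Acadvl, for very long chains, had a log2 FC of -0.08 (95% interval -0.18 to 0.02) and Acadl, for long chains, one of 0.15 (95% interval -0.02 to 0.32). Acadvl nevertheless lay below NME on all AGR arrays, while the lines overlapped for Acadl. The intervals of Acads and Acadm do not reach those of Acadvl and Acadl, but the difference between these genes was not tested.

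Hadha and Hadhb encode the subunits of the mitochondrial trifunctional protein, which carries out the later steps for long chains. They lie head to head on chromosome 5, so the bases between their starts lie before both genes, and these are shown because both genes were lower. The sequence is that of the plus strand of GRCm38.p6, between the RefSeq starts, with CpG in capitals.
Hadha and Hadhb, chr5:30154981-30155252, plus strand: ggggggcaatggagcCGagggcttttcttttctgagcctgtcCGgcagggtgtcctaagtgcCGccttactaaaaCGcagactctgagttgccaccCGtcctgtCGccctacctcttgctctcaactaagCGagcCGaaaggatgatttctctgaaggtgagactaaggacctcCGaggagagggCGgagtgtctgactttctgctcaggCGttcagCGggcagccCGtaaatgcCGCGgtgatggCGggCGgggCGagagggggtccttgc
It covers 272 bases with 18 CpG and a GC content of 60.3%. Hadha had levels of 12.28, 12.17 and 12.25 on the NME arrays and 11.79, 11.84 and 11.79 on the AGR arrays, a log2 FC of -0.43 (SE 0.05, adjusted p = 0.0010). Hadhb had levels of 10.67, 10.36 and 10.60 on the NME arrays and 10.02, 9.96 and 10.07 on the AGR arrays, a log2 FC of -0.53 (SE 0.08, adjusted p = 0.0042). Both genes were lower on every AGR array by a like amount, and the other probe set of Hadhb gave a log2 FC of -0.49.

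The remaining mitochondrial members moved both ways. Hadh, the hydroxyacyl-CoA dehydrogenase for shorter chains, had a log2 FC of -0.41 (adjusted p = 0.0136). Eci1 and Decr1, which make unsaturated chains fit for β-oxidation, had log2 FC of -0.29 (adjusted p = 0.0153) and -0.21 (adjusted p = 0.0278). The call of Hadh was lost without NME replicate 1 and without NME replicate 3, that of Eci1 without any 1 of the NME arrays and without AGR replicate 3, and that of Decr1 when any array but NME replicate 2 was left out or when each array was centred on its median. Acaa2, the thiolase of the last step, was the exception. Its levels lay between 10.66 and 11.05 on the NME arrays (mean 10.90 ± 0.22, SD, n = 3) and were 11.56, 11.26 and 11.53 on the AGR arrays, so that AGR cells were higher on every array. The log2 FC was 0.55 (SE 0.13, adjusted p = 0.0203), and this call was lost without NME replicate 1, without AGR replicate 1 and without AGR replicate 3. Of its 10 nearest measured neighbours 5 were higher and none was called lower, beside 12.6% higher and 11.6% lower over all genes.

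Both members of peroxisomal α-oxidation were lower in AGR cells. Phyh, the phytanoyl-CoA hydroxylase, had a log2 FC of -0.46 (adjusted p = 0.0227), with means of 7.63 ± 0.23 in NME and 7.16 ± 0.01 in AGR cells (SD, n = 3). The NME mean lay just above the median of all probe sets and the AGR mean under it. The size of this decrease therefore rests on the background of the probe set. The call of Phyh was lost when any array but NME replicate 2 was left out. Hacl1, the lyase that follows it, had a log2 FC of -0.42 (adjusted p = 0.0135), a call lost without NME replicate 3.

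Of the genes that maintain the peroxisome, catalase changed and the others were not called. Cat, which breaks down the hydrogen peroxide that the oxidases form, had levels of 13.41, 13.31 and 13.41 on the NME arrays and 12.79, 12.46 and 12.72 on the AGR arrays. The lines did not overlap, and the means were 13.37 ± 0.06 and 12.66 ± 0.17 (SD, n = 3). The log2 FC was -0.72 (SE 0.09, adjusted p = 0.0016, 1.64-fold lower). Pex5, the receptor that brings enzymes into the peroxisome, had a log2 FC of -0.07 (95% interval -0.21 to 0.08). Pex11a, which takes part in peroxisome division, lay above NME on all AGR arrays with a log2 FC of 0.20 and was not called (adjusted p = 0.120).

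The transcriptional regulators among the members were not called. Ppara, the nuclear receptor PPARα, had means of 6.92 and 6.94, under the median of all probe sets in both lines, with a log2 FC of 0.02 (95% interval -0.18 to 0.22). Its coactivator Ppargc1a had a log2 FC of 0.14 (95% interval -0.02 to 0.31), and its other probe set gave 0.15. Ppargc1a lay above NME on all AGR arrays. As a sequence feature that the choice of members did not use, the letters AGGNCA in direct repeat with 1 base between, the element of PPAR with its partner RXR, were searched on both strands of the promoter windows. They were found in 0 of 32 members and in 0.371% of 15614 tested genes. No match says only that these letters are not in these windows.

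Other genes of the same pathways were described from 4 lists of genes outside the members, written with earlier results of these data known. Of 98 genes 89 were measured under a symbol of their own. In limma, 34 were lower, 7 were higher and 48 were not called, with a median log2 FC of -0.08, and 5 of the lower genes changed by more than 2-fold. The background is the 11.6% lower and 12.6% higher of all genes given above. The number of lower genes was 22 without NME replicate 1 and 21 without NME replicate 3, settings in which fewer of all genes were called lower too. In all, 26 of the 89 lay under the median of all probe sets in both lines.

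Among the other genes of mitochondrial fatty acid oxidation, 8 of 19 were lower and 2 were higher. The number lower was 5 without NME replicate 1, without NME replicate 3 or without AGR replicate 3. Acat1, the acetoacetyl-CoA thiolase, had a log2 FC of -0.68, the enoyl-CoA hydratase Echs1 one of -0.40 and the acyl-CoA dehydrogenase Acad12, which lay under the median of all probe sets in both lines, one of -0.38. Slc27a1, a fatty acid transport protein, was higher with 0.47 and Acad9, also an assembly factor of respiratory complex I, with 0.25. The call of Acad12 was lost without NME replicate 1 and without NME replicate 3, and that of Echs1 without AGR replicate 3. As among the members, genes on the same route moved in both directions.

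Among the other peroxisomal genes, 16 of 40 were lower and 1 was higher. The number lower was 10 without NME replicate 1 and 10 without NME replicate 3. Nudt7, a hydrolase of coenzyme A in the peroxisome, fell from a mean of 10.75 in NME to 9.42 in AGR cells, a log2 FC of -1.33. Pipox, the pipecolic acid oxidase, fell from 8.33 to 7.15, a log2 FC of -1.17 whose size rests on the background of the probe set, since the AGR level is under the median of all probe sets. The membrane protein gene Pxmp4 had a log2 FC of -0.79, a call lost without NME replicate 1 or 3 and without AGR replicate 1 or 3. Nudt19, which also hydrolyses coenzyme A, was the higher gene, with 0.67. Nudt12, of the same enzyme family, had a log2 FC of 0.02 and was not called, and it was named after its value was seen.

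Among PPAR receptors, partners and targets, 5 of 20 were lower and 3 were higher, beside 11.6% and 12.6% of all genes. The number lower was 2 without NME replicate 3 and 3 without NME replicate 1, without NME replicate 2 or without AGR replicate 3, and the number higher was 1 without NME replicate 2, without NME replicate 3 or without AGR replicate 3. Vnn1, the pantetheinase, had levels of 13.79, 13.80 and 13.74 on the NME arrays and 11.78, 11.68 and 11.73 on the AGR arrays, a log2 FC of -2.05 (SE 0.05) without overlap. Acot1, a thioesterase, had a log2 FC of -0.40, the nuclear receptor Esrra -0.36, the fatty acid hydroxylase Cyp4a10 -0.30 and the coactivator Ppargc1b -0.27. Plin2, which coats lipid droplets, was higher with 0.43, the receptor Pparg with 0.33 and the coactivator Pprc1 with 0.33. The calls of Acot1 and Plin2 were lost without any 1 of the NME arrays and without AGR replicate 3, that of Cyp4a10 when any array but AGR replicate 2 was left out and without both arrays numbered 2, that of Pparg without NME replicate 2 or 3, without AGR replicate 3 and without both arrays numbered 2, and that of Esrra without NME replicate 3. Acot1 and Cyp4a10 lay under the median of all probe sets in both lines.

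Among the other genes of ether lipids, 5 of 10 were lower and 1 was higher. Chpt1, a cholinephosphotransferase, had levels of 11.62, 11.46 and 11.56 on the NME arrays and 9.59, 9.47 and 9.74 on the AGR arrays, a log2 FC of -1.95 (SE 0.08) without overlap. Tmem86b, the lysoplasmalogenase, had a log2 FC of -1.13, Cept1 -0.57, Pla2g7, the hydrolase of platelet-activating factor, -0.39, and Selenoi, the ethanolaminephosphotransferase, -0.31. The call of Pla2g7 was lost without NME replicate 1 or 3 and without AGR replicate 1 or 3. Tmem86a, related to Tmem86b, was higher with 0.27. Chpt1 and Cept1 both place the choline head group on lipids, and both were lower.

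**Figure D3:**
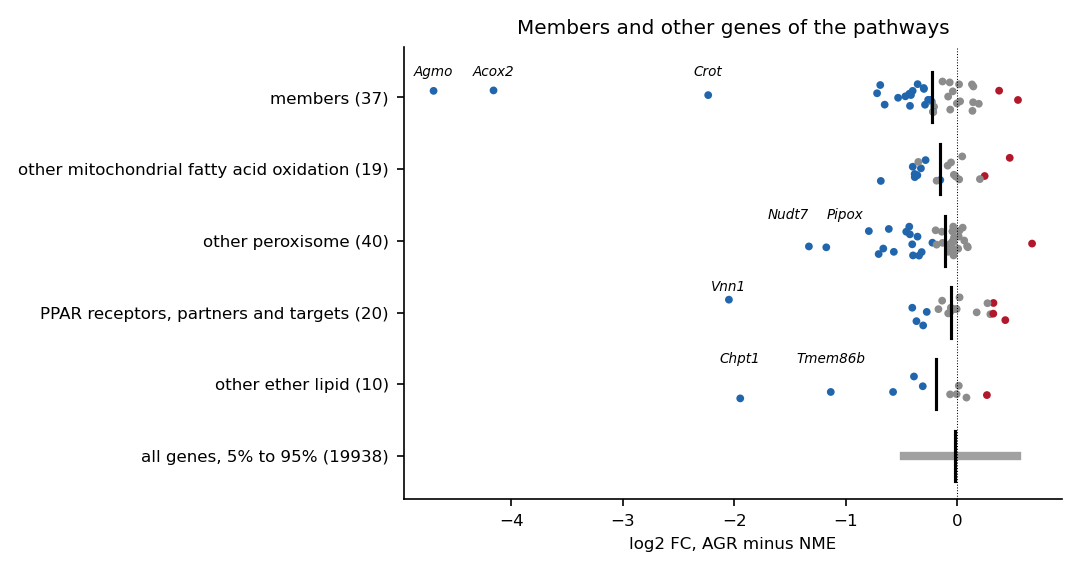
Log2 FC (AGR minus NME) of the 37 members and of the measured genes of 4 other pathway lists, with the median as a vertical bar and, for all 19938 genes, the range from the 5th to the 95th percentile in grey. Blue points are lower, red points higher and grey points not called in limma at an adjusted p under 0.05, and most called points of the members lie left of 0.

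To see whether the 3 members beyond 2-fold moved alone, the 5 nearest measured genes on either side were described from the RefSeq gene order. Around Acox2 on chromosome 14, 4 of 10 neighbours were lower and the median log2 FC was -0.13, with Fam107a at -1.90, Pxk at -0.57, Pdhb at -0.33 and Kctd6 at -0.29. Around Agmo on chromosome 12, the neighbours Meox2 (-0.73, under the median of all probe sets in both lines) and Ankmy2 (-0.51) were lower and the median was -0.01. Around Crot on chromosome 5, Rundc3b (-1.89) and Tmem243 (-0.98) were lower, Abcb1a (0.32) was higher and the median was -0.04. The lower genes directly beside a member were Fam107a and Kctd6 at Acox2, Meox2 at Agmo and Tmem243 at Crot. Over all genes 11.6% were lower in the fit that gave the calls of the neighbours, which include dim genes. At Agmo and at Crot 2 of 10 neighbours were lower, and counts this small say little beside that share. The counts of neighbours were not tested. No neighbour of the 3 genes had a decrease as large as that of the member beside it.

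**Figure D4:**
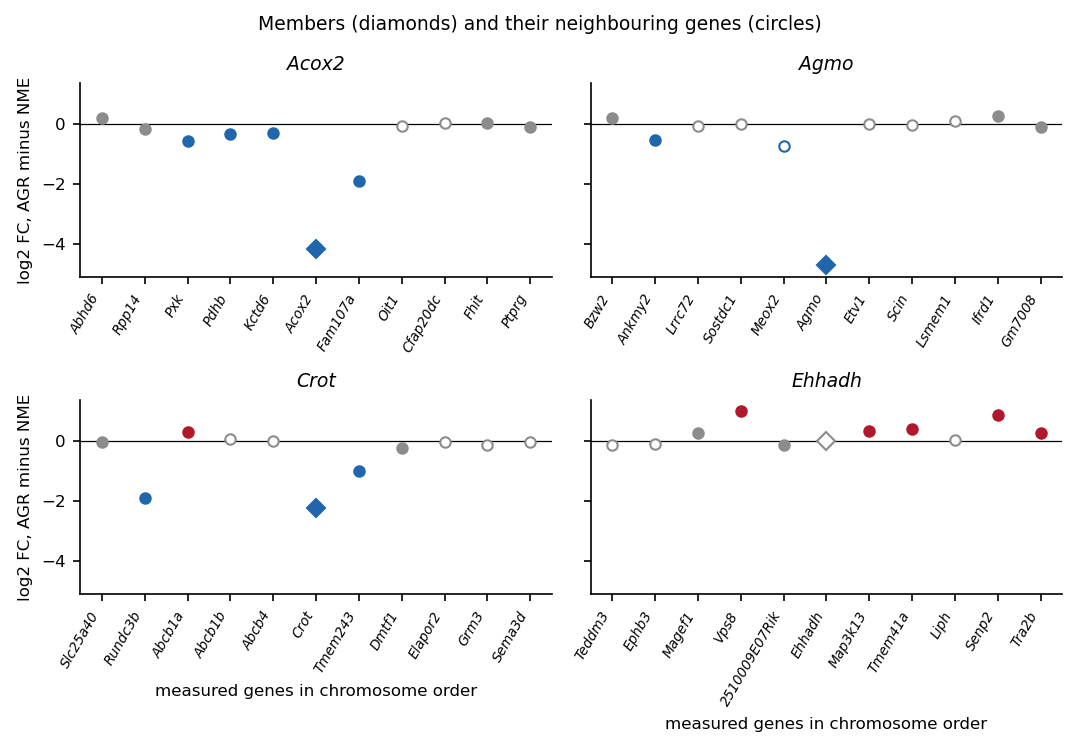
Log2 FC (AGR minus NME) of Acox2, Agmo, Crot and Ehhadh (diamonds) and of the 5 measured genes on either side of each (circles), in the order of the RefSeq gene table. Error bars (SE) are mostly hidden by the symbols, with blue for lower, red for higher and grey for not called. Open symbols are genes under the median of all probe sets in both lines. Acox2, Agmo and Crot lie at -4.16, -4.70 and -2.23, the lowest neighbours are Fam107a at -1.90 and Rundc3b at -1.89, and 5 neighbours of Ehhadh are higher.

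Marker genes of other cell types were read beside these results. Of 9 measured hepatocyte markers 5 were lower in AGR cells, namely Alb (log2 FC -6.36), Ttr (-5.12), Fgb (-3.03), Apoa1 (-1.54) and Hnf4a (-1.21), while Apob was higher (0.84) and Ahsg, Tat and Cyp7a1 lay under the median of all probe sets in both lines. The AGR means of Alb, Ttr and Fgb (6.71, 7.44 and 7.28) were also under that median, so the size of their decreases rests on background. The summed intensity of the list was 27530 to 30021 on the NME arrays and 9865 to 10099 on the AGR arrays, so it moved in the same direction as most called members. Of 6 measured adipocyte markers 5 lay under that median in both lines and Cidec was lower (-1.28), with sums of 1331 to 1532 in NME and 835 to 930.3 in AGR cells. Of the mammary epithelial markers Cdh1 was lower (-0.60), with sums of 44335 to 44498 in NME and 38073 to 39138 in AGR cells. The part of these genes in the results was not tested. Of the fibroblast markers Pdgfra was higher (0.39), with sums of 1247 to 1390 in NME and 1300 to 1374 in AGR cells. Of the immune markers Cd68 (0.96) and Csf1r (0.28) were higher, with sums of 794.7 to 864 and 1091 to 1136. The endothelial list had 4 of 5 genes under that median in both lines and sums of 678 to 762 and 673 to 708.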

How the data were processed

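RNA levels were measured in 3 NME and 3 AGR samples on Affymetrix Mouse Gene 1.0 ST arrays, and sample titles gave the line of each array. The authors deposited processed intensities that are linear, not logarithmic. Per the labels they used MAS5, without further detail. MAS5 relies on mismatch probes that arrays of this type lack, and how the values were normalized is therefore not known. The number of arrays limits the precision, and no counts or detection calls were at hand.

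log2 of the deposited intensity was taken with no offset. Of 35557 probe sets, 21789 carried 1 gene symbol in the platform table, and 21698 of these were matched by gene ID to a RefSeq table of GRCm38.p6, with 0 symbols that differed. The brightest probe set was used for 999 genes with several. AGR and NME cells were compared over 19938 genes with lmFit and eBayes in limma 3.58.1 (R 4.3.3), with Benjamini-Hochberg adjustment, and called at an adjusted p under 0.05. Members and pathway lists were read from this fit with no test of their own. The members, the 4 pathway lists and the 6 marker lists were chosen with earlier results of these data known. Levels on every array are given for called members with a FC of at least 1.5 and for some others, the 3 largest changes each way are named from each pathway list (all where 5 or fewer moved 1 way), and neighbours are named for members with a FC of at least 2. Promoter sequences came from a RefSeq table of GRCm38.p6. Targeting signals in the proteins were not analysed here. The steps were tested on simulated data. The alternatives were 2 other normalizations, 2 filters on dim genes, averaging the probe sets of a gene, a trended and robust eBayes, the methods' t-test, a replicate block, an offset of 16, leaving out each array, a FC above 2, and, chosen after seeing the data, leaving out both arrays numbered 2.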

Additional observations from a re-analysis of the deposited data

How the results depend on the processing

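The median log2 FC of the members kept its sign in every alternative run, and 12 of 21 called members (Acadm, Acads, Acox2, Acsl4, Acsl5, Agmo, Amacr, Cat, Crot, Hadha, Hadhb and Hsd17b4) kept their direction and their side of the threshold in each of 17 settings. No called member reversed. With a FC above 2 added to the threshold, 299 genes were lower and 299 higher over all genes, 3 members were lower and 0 higher, and 5 genes of the pathway lists were lower and 0 higher. The counts of 0 in limma were also 0 at an unadjusted p under 0.05 and in the methods' t-test. With the methods' t-test after Benjamini-Hochberg adjustment, 12 members were lower and 1 was higher, and 21 genes of the pathway lists were lower and 4 higher. After adjustment this test did not call Hadh, Acaa2, Eci1, Decr1, Acot8, Phyh, Hacl1 and Agps. The lost calls named gene by gene above leave this setting out. At an unadjusted p under 0.05 the t-test called 21 members lower and 2 higher. Leaving out 1 array gave 12 to 17 lower and 1 to 2 higher members, and 21 to 34 lower and 5 to 8 higher genes of the pathway lists. An arm left with 2 arrays was tested with the spread pooled over both lines. Fewer arrays were used in these settings, and for the others the cause was not tested. Phyh had no value in the fit without genes under the median of all probe sets.

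Deviations of the same-numbered arrays from the means of their lines correlated at -0.13, 0.33 and 0.26, and 2 of 3 NME arrays and 1 of 3 AGR arrays correlated best with the array of their own number in the other line. Since 1 pair was negative and the labels tie nothing to the numbers, the arrays were not treated as paired. With the replicate block 20 members were lower and 2 higher. Acot8 was no longer called, and Acox3 and Scp2 were called lower.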
